A study of Mus musculus with 8 samples.

Results

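Glutamate, GABA and glycine are the main fast transmitters of the brain, and their receptor genes were followed here in immature oligodendrocytes (iOLs) with and without Med23, a subunit of the Mediator complex. The receptor genes were the rows of the deposited expression table whose symbol starts with Gria (AMPA receptors), Grik (kainate receptors), Grin1, Grin2 or Grin3 (NMDA receptors), Grm and a digit (metabotropic glutamate receptors), Gabra, Gabrb, Gabrd, Gabre or Gabrg (GABA-A receptors), Gabbr (GABA-B receptors), and Glra or Glrb (glycine receptors). This gave 46 of 24346 genes, of which 45 encode receptor subunits and 1, Grin1os, is an antisense transcript of Grin1.

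RNA-seq was performed on 8 iOL libraries, 4 Med23+/+ and 4 Med23-/-, which the labels call WT and MED23KO. The study's methods give the knockout mice as Med23 fl/fl;Olig1-Cre+/- and their control littermates as Med23 fl/fl without Cre, so that both groups carry the floxed allele, and Cre acts in cells that have expressed Olig1. Oligodendrocyte precursor cells (OPCs) were purified from brains of mice at postnatal day 7 by immunopanning on an antibody to the PDGF alpha receptor after depletion of endothelial cells and microglia, grown with PDGF-AA at 10 ng/mL and NT-3 at 1 ng/mL, and sampled after 1 day in 15 nM T3 (the active thyroid hormone) with 10 ng/mL CNTF. Levels are FPKM, fragment counts normalized to transcript length and to the mapped fragments of the library. No read counts were used here, and the sequencing depth is therefore unknown. From the spacing of low values, 1 read in a library was worth 0.744 to 1 of its worth in Med23+/+ replicate 1, and between 15941 and 16469 genes were above 0. The labels do not say whether the 4 replicates of a genotype came from separate cultures or animals, so the p-values measure only the spread between these libraries, which may be technical. Med23 itself was at 12.7, 12.2, 12.6 and 12.6 FPKM in Med23+/+ and 8.40, 7.93, 8.49 and 8.21 FPKM in Med23-/- (log2 fold change -0.55 ± 0.067 SE, adjusted p = 0.000353 by limma), so Med23 transcript was lower in every Med23-/- library and was still detected. Whole-gene FPKM do not separate the deleted exons from the rest.

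Oligodendrocyte precursors are known to carry glutamate and GABA receptors and to receive synapses from axons. AMPA and kainate receptors are tetrameric cation channels opened by glutamate, NMDA receptors need glutamate and glycine together and a depolarized membrane, and metabotropic glutamate receptors act through G proteins. GABA-A and glycine receptors are pentameric chloride channels, whereas the GABA-B receptor is a G protein-coupled dimer of the Gabbr1 and Gabbr2 products.

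The iOLs expressed a narrow set of these genes at high levels, and the 5 most abundant, all AMPA or kainate subunit genes, had log2 fold changes between -0.40 and 0.14, whereas many weakly expressed receptor genes were higher in Med23-/-. A gene was tested where its mean over the 8 libraries was at least 1 FPKM, and it was called where the adjusted p was under 0.05, from limma on log2(FPKM + 1) over all 12328 such genes. Fold changes are on that scale, which understates the change of genes at low levels. Of the 46 receptor genes 29 were tested, 13 were called higher in Med23-/- (15.9% of all genes tested were) and 1, Grik5, was called lower (14.1% of all genes tested). Together 14 were called, beside 30% of all genes tested, and the other 15 were not. With a fold change above 2 required as well, 5 receptor genes were called higher (2.98% of all genes tested), among them Grm5, Grik1, Grm4 and Glra2, and 0 lower (1.75%). By limma's unadjusted p under 0.05, 15 receptor genes were higher and 2 lower, Grik5 and Gria2, and neither of these 2 had a fold change of 2. Of the 12328 genes tested, 2599 were higher and 2497 lower by that p. The median log2 fold change was 0.37 over the 29 receptor genes and -0.01 over all genes tested. It was above 0 in 24 of the 29 and in 5953 of the 12328. These values over all genes tested are the background of the counts by family and marker list that follow.

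The calls lay mostly at the lower end of the expression range. Among the 10 receptor genes with a mean of 20 FPKM or more, 1 was called higher and 1, Grik5, lower. Among the 6 between 5 and 20 FPKM, 4 were called higher, and among the 13 between 1 and 5 FPKM, 8 were. The share of all genes called at each of these levels was not computed. In 9 genes every Med23-/- library was above every Med23+/+ library, which 16.3% of all genes tested showed, and in 0 genes every Med23-/- library was below (15.3%).

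The remaining 17 receptor genes had means under 1 FPKM and were not tested. They were Grin2a, Grin2c, Grin2d, Grin3b and Grin1os, Grm2, Grm6 and Grm8, Gabra5, Gabra6, Gabrb1, Gabrd, Gabre and Gabrg3, and Glra1, Glra3 and Glra4. None was at 0 in all 8 libraries and 5 were at 0 in at least 1, while 6 had means under 0.1 FPKM (Gabre, Gabrd, Glra1, Glra3, Glra4 and Grm6). The genes next to the limit were Gabra6 and Gabrb1 below it, at 0.961 and 0.875 FPKM, and Grm7 and Gabra4 above it, at 1.13 and 1.16 FPKM. Gabra4 and Grm7 were under 1 FPKM in Med23+/+ and passed through their Med23-/- level, and neither was called. Gabra6 was uneven across the Med23-/- libraries, at 0.429, 0.139, 3.78 and 1.86 FPKM against 0.315, 0.223, 0.334 and 0.607 FPKM in Med23+/+.

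**Figure D1:**
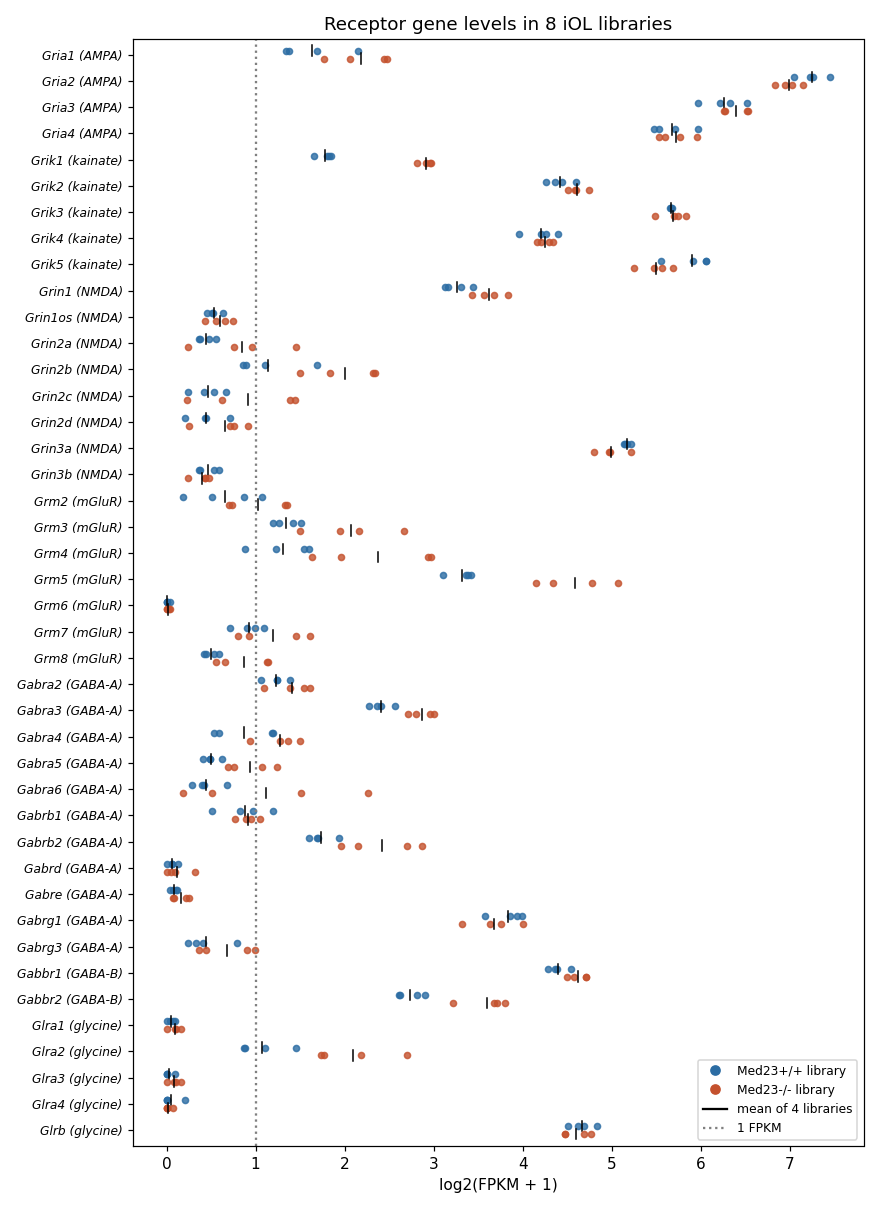
Expression of 42 of the 46 receptor genes, one per row, as log2(FPKM + 1) on the x axis. Each point is 1 library, short vertical lines are the means of 4 libraries and the dotted line is 1 FPKM. Gria2, Gria3, Gria4, Grik3 and Grik5 sit farthest right in both genotypes, and the Med23-/- points of Grik1, Grm5, Gabbr2 and Glra2 lie to the right of all their Med23+/+ points.

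The libraries of a genotype were not alike across the receptor genes. Med23-/- replicates 3 and 4 were both above replicates 1 and 2 in 18 of the 29 receptor genes tested (62.1%), in 12 of the 13 called higher, and in 21.7% of all genes tested. In Med23+/+, replicates 3 and 4 were both above replicates 1 and 2 in 7 of the 29 and both below in 9. Of the 13 called higher, 0 were above and 6 below in this way. Over the 12328 genes tested, 3382 were above and 2066 below in Med23+/+, and 2673 above and 2287 below in Med23-/-. With only Med23-/- replicates 1 and 2 set against all 4 Med23+/+ libraries, 4 receptor genes were still called higher, Grik1, Grm5, Gabbr2 and Glra2. With replicates 1 and 2 of both genotypes alone 2 were called, Grik1 and Grm5, and with replicates 3 and 4 alone 15 were. In the first of these fits Grik1 kept a log2 fold change of 1.08 and Grm5 one of 0.93, while Grm4 was at 0.48.

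Most neuron markers tested were also higher in Med23-/-. Of 14 markers 11 were tested, and 8 were called higher and 0 lower by limma, beside 15.9% and 14.1% of all genes tested. By unadjusted p under 0.05, 9 were higher and 0 lower. The summed level of the 14 was 65.0 to 95.9 FPKM in Med23+/+ and 156.9, 115.5, 206 and 192 FPKM in the 4 Med23-/- libraries. The sum was thus again highest in Med23-/- replicates 3 and 4. Both were above Med23-/- replicates 1 and 2 in 6 of the 11 markers tested (54.5%), beside 21.7% of all genes tested. Snap25, Syn1, Stmn2 and Tubb3 were the most abundant of them, with Snap25 at 16.5, 11.8, 11.6 and 11.3 FPKM in Med23+/+ and 28.9, 23.3, 44.2 and 38.7 FPKM in Med23-/-. Tubb3 did not share that order, at 30.4, 24.0, 23.3 and 24.9 FPKM in Med23-/-, highest in replicate 1. None of the 14 was at 0 in any library, though Slc17a6, the vesicular glutamate transporter of many excitatory neurons, stayed at 0.0234 to 0.564 FPKM. Slc17a7, the other vesicular glutamate transporter of the list, was at 0.242, 0.216, 0.859 and 1.51 FPKM in Med23+/+ and 1.24, 0.371, 6.20 and 4.71 FPKM in Med23-/-, highest in Med23-/- replicates 3 and 4, and was not called (log2 fold change 1.04 ± 0.49 SE, adjusted p = 0.141 by limma). Their part in the receptor result was not tested. In a bulk culture fewer or more cells of a type and less or more RNA per cell cannot be told apart.

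**Figure D2:**
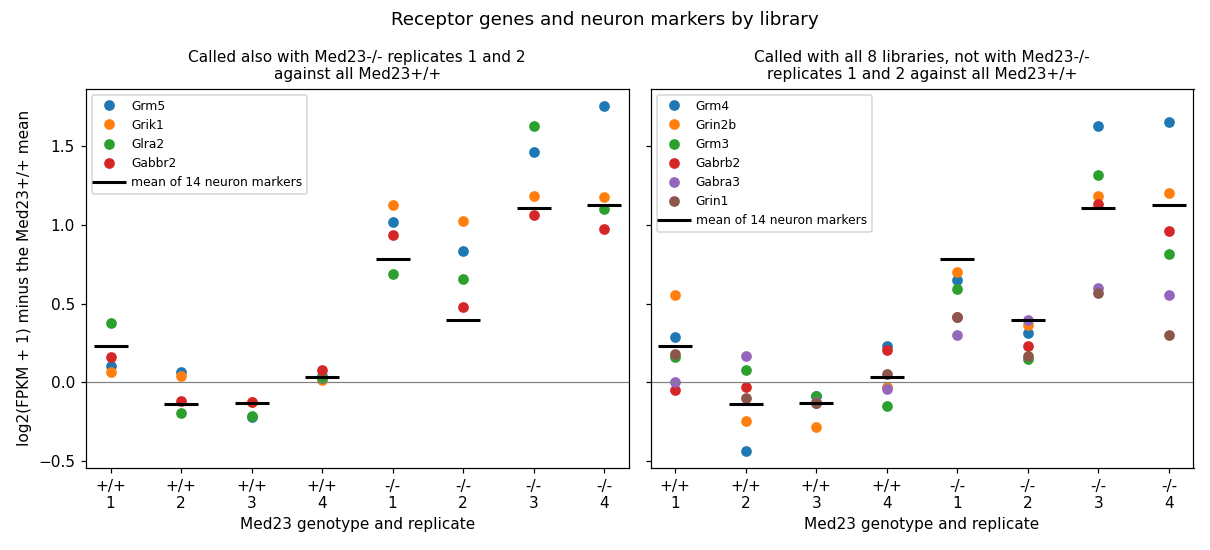
Level of 10 of the 13 receptor genes called higher in each library, as log2(FPKM + 1) minus the Med23+/+ mean (y axis), by Med23 genotype and replicate (x axis). Points are genes, black bars the mean of the 14 neuron markers on the same scale, and the left panel holds the 4 genes still called with Med23-/- replicates 1 and 2 against all Med23+/+ libraries. The neuron marker bars are higher in Med23-/- replicates 3 and 4 than in replicates 1 and 2, as are most receptor genes, whereas Grik1 is nearly level across the 4 Med23-/- libraries.

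The 10 astrocyte markers had summed levels of 251 to 307 FPKM in Med23+/+ and 122 to 184 FPKM in Med23-/-, with 1 called higher and 4 lower. S100b was the most abundant in Med23+/+. Its fall from a mean of 125 to 17.5 FPKM made up most of the fall in the mean sum, from 280 to 143 FPKM. The 5 not called included Aldoc, with means of 50.7 FPKM in Med23+/+ and 50.9 FPKM in Med23-/-. The 8 microglia markers summed to 1.02 to 1.89 FPKM with P2ry12 the highest, and the 8 mural or fibroblast markers to 1.59 to 14.3 FPKM with Col1a1 the highest. The 6 endothelial markers summed to 0.509 to 1.19 FPKM in Med23+/+ and 1.17 to 2.97 FPKM in Med23-/-, and most of this sum was Kdr. From Med23+/+ to Med23-/-, the means of Pecam1 (0.117 to 0.0886 FPKM), Tek (0.0347 to 0.0192 FPKM) and Flt1 (0.0312 to 0.0182 FPKM) fell. Those of Cldn5 (0.0124 to 0.0561 FPKM) and Cdh5 (0.0267 to 0.0833 FPKM) rose. Kdr, a receptor for VEGF, was the only endothelial marker tested. It averaged 0.505 FPKM in Med23+/+ and passed the limit of 1 FPKM only through its Med23-/- mean of 1.65 FPKM. Its levels were 0.963, 0.332, 0.378 and 0.347 FPKM in Med23+/+ and 0.906, 0.879, 2.69 and 2.11 FPKM in Med23-/-. Kdr was again highest in Med23-/- replicates 3 and 4, and was called higher (log2 fold change 0.77 ± 0.25 SE, adjusted p = 0.0398 by limma). The OPC markers, led by Olig1, summed to 1934 to 2231 FPKM in Med23+/+ and 2056 to 2505 FPKM in Med23-/-, and of the 8, all tested, 2 were called higher and 2 lower. Pdgfra, the PDGF alpha receptor of the purification, was at 108, 129, 105 and 141 FPKM in Med23+/+ and 325, 335, 329.6 and 347 FPKM in Med23-/- (log2 fold change 1.47 ± 0.10 SE, adjusted p = 2.33e-05 by limma), and Cspg4 (NG2) went from 38.9 to 102 FPKM (log2 fold change 1.39 ± 0.14 SE, adjusted p = 0.000141 by limma), both without overlap. Sox10 (log2 fold change -0.49, adjusted p = 0.0203 by limma) and Vcan (log2 fold change -0.81, adjusted p = 0.00224 by limma) were called lower. All 6 committed precursor markers, led by Gpr17 and Bcas1, were called lower, as were all 5 mature oligodendrocyte markers tested, led by Cnp, while Mobp, Opalin and Mal were under 1 FPKM in both genotypes. The labelled oligodendrocyte lineage thus had its markers in every library. The part of these shifts in the receptor result was not tested.

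AMPA receptor genes were the most abundant family, with summed levels of 239.7 to 329 FPKM in Med23+/+ and 238 to 298 FPKM in Med23-/-, which overlap. None of the 4 genes was called by limma, and by unadjusted p under 0.05 Gria1 was higher and Gria2 was lower. The 4 pore loops are printed first, because the AMPA result turns on how much of the family Gria2 makes up. A glutamine codon in the pore loop decides calcium flow: in Gria2 transcripts it is known to be recoded to arginine by the editing enzyme that Adarb1 encodes, and receptors with edited Gria2 pass little calcium. The 48-base coding stretches come from the reference transcripts of GENCODE vM21 on mm10, and capitals mark that glutamine codon as the genome encodes it. Each lies within 1 coding exon of the transcript read. FPKM do not measure editing. Adarb1 was itself called higher, with means of 5.33 FPKM in Med23+/+ and 7.20 FPKM in Med23-/- and no overlap (log2 fold change 0.37 ± 0.095 SE, adjusted p = 0.0160 by limma).
Gria1 pore loop, chr11:57243067-57243114, plus strand, exon 11: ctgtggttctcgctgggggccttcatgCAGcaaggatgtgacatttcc
Gria2 pore loop, chr3:80706893-80706940, minus strand, exon 11: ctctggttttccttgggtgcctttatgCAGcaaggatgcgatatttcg
Gria3 pore loop, chrX:41610238-41610285, plus strand, exon 11: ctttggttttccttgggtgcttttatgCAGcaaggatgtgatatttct
Gria4 pore loop, chr9:4464119-4464166, minus strand, exon 12: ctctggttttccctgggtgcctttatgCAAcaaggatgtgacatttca
The Gria2 stretch shares 44 of 48 bases with Gria3, 43 with Gria4 and 39 with Gria1. The marked codon is CAG in Gria1, Gria2 and Gria3 and CAA in Gria4.

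Gria2 (chr3:80681450-80802835) was the highest of all receptor genes, at 131, 149, 175 and 153 FPKM in Med23+/+ and 113, 129, 141 and 122 FPKM in Med23-/-. Its levels were lower on average in Med23-/- with overlapping libraries, and it was not called (log2 fold change -0.26 ± 0.10 SE, adjusted p = 0.0854 by limma), except without Med23+/+ replicate 1 (adjusted p = 0.0433 by limma) and in the fit blocked on replicate number (adjusted p = 0.0289 by limma). Gria3, which encodes a further AMPA subunit, was at 61.7, 73.1, 90.8 and 79.5 FPKM in Med23+/+ and 75.9, 90.4, 91.4 and 76.5 FPKM in Med23-/-, and its genotypes overlapped (log2 fold change 0.14 ± 0.12 SE, adjusted p = 0.434 by limma, 95% interval -0.14 to 0.41). Gria4, also at high levels, was at 43.3, 45.4, 61.9 and 51.4 FPKM in Med23+/+ and 45.3, 47.5, 61.3 and 53.6 FPKM in Med23-/- (log2 fold change 0.044 ± 0.13 SE, adjusted p = 0.833 by limma, 95% interval -0.25 to 0.33). Gria1 was the weak member of the family, at 3.42, 1.59, 1.54 and 2.23 FPKM in Med23+/+ and 3.16, 2.41, 4.44 and 4.54 FPKM in Med23-/-. Its Med23-/- replicates 3 and 4 were the highest of the 8, and it was not called (log2 fold change 0.55 ± 0.21 SE, adjusted p = 0.0820 by limma), except without Med23+/+ replicate 1 or Med23-/- replicate 2 (adjusted p = 0.0268 to 0.0390 by limma) and with replicates 3 and 4 alone (adjusted p = 0.0334 by limma).

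The make-up of the family differed between genotypes although no gene of it was called. Gria2 supplied 54.8, 55.4, 53.1 and 53.5% in Med23+/+ and 47.7, 47.8, 47.2 and 47.6% in Med23-/- of the summed AMPA receptor FPKM. All 4 Med23-/- shares were below all 4 Med23+/+ shares, and the means were 54.2% ± 1.07 in Med23+/+ and 47.6% ± 0.250 in Med23-/- (SD, n = 4 each). The difference of -6.58 percentage points was between -6.94 and -6.18 when any 1 library was left out. Gria3 made up the larger part of the gap, with 27.1% ± 0.939 in Med23+/+ and 31.5% ± 1.66 in Med23-/-, again with no overlap. Gria4 had 17.9% ± 0.799 in Med23+/+ and 19.5% ± 1.48 in Med23-/-, and Gria1 had 0.816% ± 0.427 in Med23+/+ and 1.37% ± 0.365 in Med23-/-, both with overlapping libraries. Shares within a family sum to 100%, so they are not independent of each other and are given with no test.

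**Figure D3:**
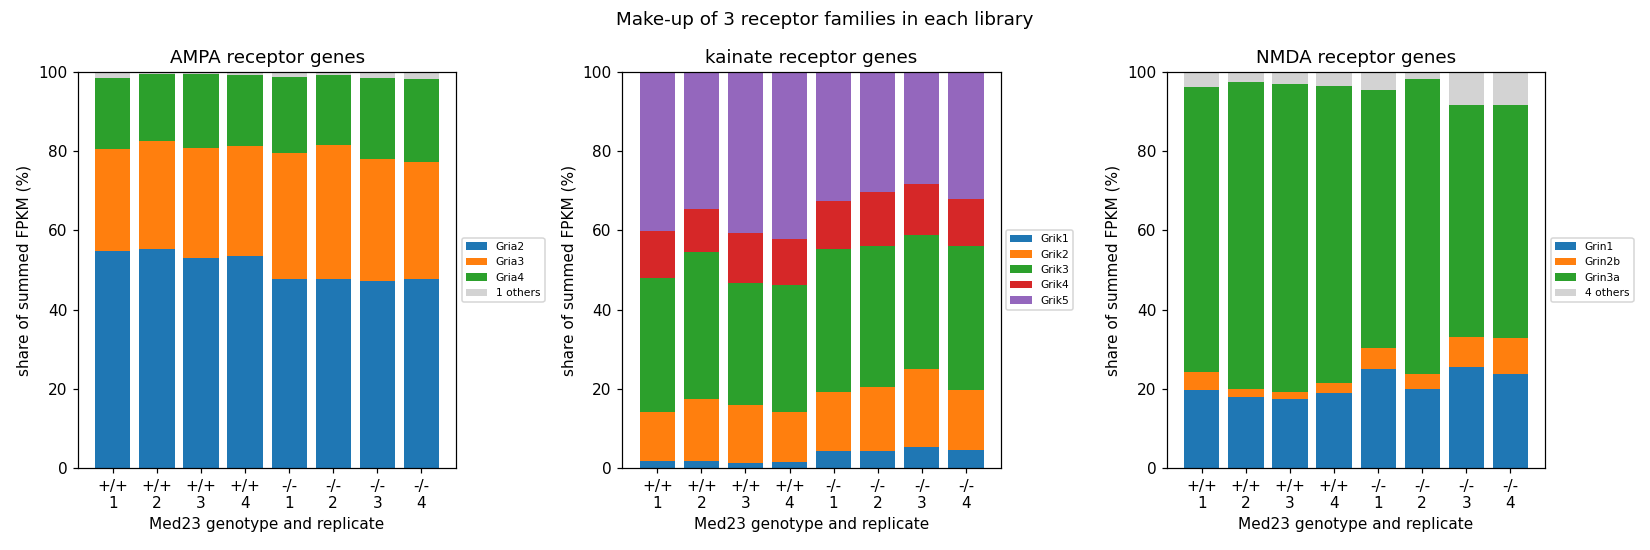
Share of each gene in the summed FPKM of its receptor family (y axis, %) for the 8 libraries (x axis, Med23 genotype and replicate), for AMPA, kainate and NMDA receptor genes. Genes under 1 FPKM are pooled in grey, together with Gria1 in the AMPA panel, and Grin1os is left out. Gria2 takes over 53% of the AMPA total in every Med23+/+ library and under 48% in every Med23-/- library, and the Grik5 share of the kainate total is smaller in every Med23-/- library than in every Med23+/+ library.

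The kainate family held the only receptor gene called lower and the one with the smallest adjusted p among those called higher. Grik1 (chr16:87895900-88290265) encodes a low-affinity subunit that can form channels by itself. It was at 2.61, 2.55, 2.16 and 2.48 FPKM in Med23+/+ and 6.53, 6.003, 6.84 and 6.79 FPKM in Med23-/-, so that every Med23-/- library lay above every Med23+/+ library with little spread on either side (log2 fold change 1.13 ± 0.089 SE, adjusted p = 4.06e-05 by limma). It was called in every fit without 1 library and in all 3 of the smaller sets of libraries. Grik5 (chr7:25009849-25072346) encodes a high-affinity subunit that needs a low-affinity partner. It was at 59.2, 46.05, 65.6 and 65.9 FPKM in Med23+/+ and 50.5, 43.5, 37.03 and 46.3 FPKM in Med23-/-, with the highest Med23-/- library above the lowest Med23+/+ library (log2 fold change -0.40 ± 0.13 SE, adjusted p = 0.0432 by limma). The log2 fold change stayed between -0.52 and -0.32 when any 1 library was left out, but Grik5 was not called without Med23+/+ replicate 1, 3 or 4 or Med23-/- replicate 2, 3 or 4 (adjusted p = 0.0558 to 0.115 by limma). It was also not called with all genes above 0 tested (adjusted p = 0.0646 by limma), with quantile normalization (0.112) or without the variance trend (0.0516).

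The other kainate genes were not called. Grik3, a low-affinity subunit, stood at 50.3, 49.3, 49.7 and 49.9 FPKM in Med23+/+ and 55.9, 51.2, 43.96 and 52.6 FPKM in Med23-/- (log2 fold change 0.026 ± 0.082 SE, adjusted p = 0.847 by limma, 95% interval -0.16 to 0.21). Grik2, also low-affinity, had 20.5 ± 2.13 FPKM (SD, n = 4) in Med23+/+ and 23.4 ± 1.71 FPKM (SD, n = 4) in Med23-/- (log2 fold change 0.19 ± 0.091 SE, adjusted p = 0.143 by limma), and Grik4, the second high-affinity subunit, had 17.6 ± 2.29 FPKM (SD, n = 4) in Med23+/+ and 18.04 ± 1.06 FPKM (SD, n = 4) in Med23-/- (log2 fold change 0.042 ± 0.099 SE, adjusted p = 0.787 by limma, 95% interval -0.18 to 0.26). As a share of the summed kainate FPKM, Grik5 had 39.4% ± 3.35 in Med23+/+ and 30.9% ± 1.91 in Med23-/-, and Grik1 had 1.65% ± 0.244 in Med23+/+ and 4.59% ± 0.490 in Med23-/-, and neither share overlapped between genotypes. The family sum itself overlapped, at 133 to 161 FPKM in Med23+/+ and 130.5 to 154 FPKM in Med23-/-.

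Among NMDA receptor genes, Grin3a was the most abundant by a wide margin, and 2 of the 3 genes tested were called higher. Grin3a encodes a glycine-binding subunit known to lower calcium flow and magnesium block. It was at 36.1, 34.2, 34.5 and 35.1 FPKM in Med23+/+ and 30.6, 36.3, 30.3 and 26.8 FPKM in Med23-/-, overlapping and not called (log2 fold change -0.18 ± 0.091 SE, adjusted p = 0.178 by limma), except without Med23-/- replicate 2 (adjusted p = 0.0476 by limma). Grin1 (chr2:25291181-25319187), the obligatory subunit, was at 9.84, 7.93, 7.76 and 8.92 FPKM in Med23+/+ and 11.8, 9.74, 13.2 and 10.8 FPKM in Med23-/-, with Med23-/- replicate 2 below the highest Med23+/+ library (log2 fold change 0.36 ± 0.11 SE, adjusted p = 0.0306 by limma). Its annotated span overlaps that of Grin1os on the opposite strand by 7706 bases, and the strand setting of the counting is not given in the sources used here, but Grin1os was listed at only 0.420, 0.437, 0.371 and 0.547 FPKM in Med23+/+ and 0.673, 0.581, 0.348 and 0.470 FPKM in Med23-/-. Grin2b (chr6:135713233-136173511), a glutamate-binding subunit, was at 2.23, 0.852, 0.807 and 1.15 FPKM in Med23+/+ and 2.58, 1.83, 4.001 and 4.06 FPKM in Med23-/- (log2 fold change 0.86 ± 0.24 SE, adjusted p = 0.0220 by limma). Grin1 was not called without Med23+/+ replicate 2, 3 or 4 or Med23-/- replicate 1 or 3 (adjusted p = 0.0575 to 0.0858 by limma), nor Grin2b without Med23+/+ replicate 2, 3 or 4 or Med23-/- replicate 3 or 4 (adjusted p = 0.0503 to 0.0642 by limma). With all genes above 0 tested, Grin1 was not called (adjusted p = 0.0515 by limma). The ratio of Grin3a to Grin1 was 3.66 to 4.44 in Med23+/+ and 2.29 to 3.73 in Med23-/-, so that they overlapped at Med23-/- replicate 2. Grin1 supplied 18.5% ± 1.003 in Med23+/+ and 23.5% ± 2.49 in Med23-/- of the NMDA total with no overlap. The other glutamate-binding subunit genes were weak, with Grin2a at 0.363 to 0.888 FPKM from Med23+/+ to Med23-/-, Grin2c at 0.390 to 1.01 FPKM and Grin2d at 0.375 to 0.601 FPKM, none of them tested.

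Metabotropic glutamate receptors showed the highest proportion of calls, 4 higher of 5 tested, beside 15.9% of all genes tested. Their summed levels were 13.3 to 17.8 FPKM in Med23+/+ and 24.8 to 51.98 FPKM in Med23-/-. Grm5 (chr7:87584168-88134907) encodes a receptor that couples to phospholipase C. Grm5 made up most of the family and was at 9.74, 9.45, 7.58 and 9.25 FPKM in Med23+/+ and 19.2, 16.8, 26.5 and 32.7 FPKM in Med23-/-. Every Med23-/- library was above every Med23+/+ library, most of all replicates 3 and 4 (log2 fold change 1.27 ± 0.18 SE, adjusted p = 0.000924 by limma). It was called in every fit without 1 library.

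Grm3 and Grm4 belong to the groups that inhibit adenylyl cyclase. Grm4 (chr17:27422387-27521403) was at 2.03, 0.838, 1.34 and 1.92 FPKM in Med23+/+ and 2.90, 2.09, 6.68 and 6.82 FPKM in Med23-/-, where Med23-/- replicates 3 and 4 stood far above the other 6 libraries (log2 fold change 1.06 ± 0.31 SE, adjusted p = 0.0275 by limma). Grm3 (chr5:9485541-9725170) was at 1.84, 1.69, 1.39 and 1.29 FPKM in Med23+/+ and 2.84, 1.83, 5.33 and 3.48 FPKM in Med23-/-, and its lowest Med23-/- library fell just inside the Med23+/+ range (log2 fold change 0.72 ± 0.22 SE, adjusted p = 0.0317 by limma). Grm4 was not called without Med23+/+ replicate 2 or 3 or Med23-/- replicate 3 or 4 (adjusted p = 0.0607 to 0.0750 by limma), nor Grm3 without Med23+/+ replicate 2, 3 or 4 or Med23-/- replicate 1, 3 or 4 (adjusted p = 0.0540 to 0.0784 by limma). Neither was called with all genes above 0 tested (adjusted p = 0.0519 for Grm4 and 0.0546 for Grm3 by limma) or with quantile normalization (0.0581 and 0.0799). Grm7, of the same class as Grm4, had 0.910 ± 0.209 FPKM (SD, n = 4) in Med23+/+ and 1.36 ± 0.631 FPKM (SD, n = 4) in Med23-/- and was not called (log2 fold change 0.27 ± 0.20 SE, adjusted p = 0.337 by limma). Grm2 and Grm8 had means of 0.855 and 0.636 FPKM, and Grm6, known from the retina, was the lowest of all 46 at 0.00929 FPKM.

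**Figure D4:**
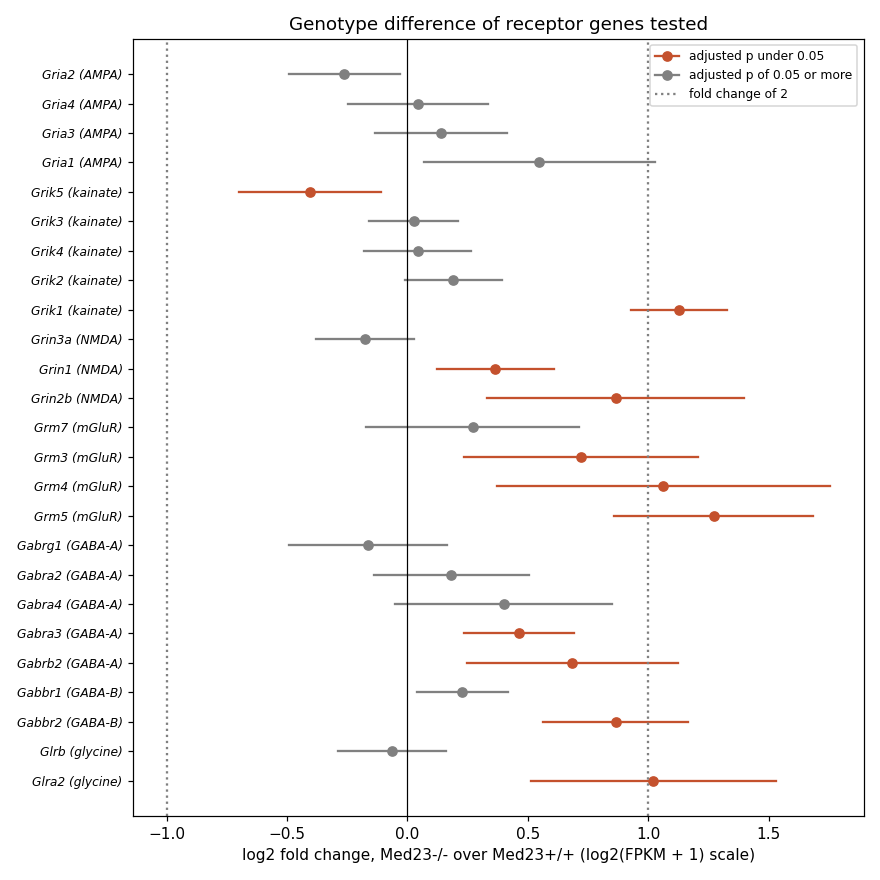
Fitted log2 fold change of Med23-/- over Med23+/+ on the log2(FPKM + 1) scale (x axis) for 25 of the 29 receptor genes tested, ordered by family. Points are estimates, horizontal lines 95% intervals, colour marks an adjusted p under 0.05 and dotted lines a fold change of 2. Grm5 at 1.27, Grik1 at 1.13, Grm4 at 1.06 and Glra2 at 1.02 pass the fold limit, and Grik5 at -0.40 is the only coloured point left of 0.

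GABA-A receptor genes gave 4 calls of 8 tested, all higher, beside 15.9% of all genes tested called higher. The beta subunits carry the GABA site together with alpha subunits. Gabrb2 (chr11:42419757-42629028) was at 2.22, 2.26, 2.04 and 2.84 FPKM in Med23+/+ and 3.43, 2.90, 6.31 and 5.49 FPKM in Med23-/-, without overlap and with replicates 3 and 4 of Med23-/- on top (log2 fold change 0.68 ± 0.20 SE, adjusted p = 0.0258 by limma), but it was not called without Med23+/+ replicate 1, 2 or 3 or Med23-/- replicate 3 or 4 (adjusted p = 0.0574 to 0.0701 by limma) or with quantile normalization (adjusted p = 0.0757 by limma).

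Of the alpha subunits, Gabra3 (chrX:72432681-72656848) was the strongest and was called higher, at 4.31, 4.94, 3.85 and 4.14 FPKM in Med23+/+ and 5.54, 5.97, 7.01 and 6.78 FPKM in Med23-/-, with no overlap (log2 fold change 0.46 ± 0.10 SE, adjusted p = 0.00804 by limma). Gabra2 had 1.35 ± 0.214 FPKM (SD, n = 4) in Med23+/+ and 1.68 ± 0.405 FPKM (SD, n = 4) in Med23-/- (log2 fold change 0.18 ± 0.14 SE, adjusted p = 0.375 by limma). Gabra4 had 0.875 ± 0.467 FPKM (SD, n = 4) in Med23+/+ and 1.44 ± 0.388 FPKM (SD, n = 4) in Med23-/- (log2 fold change 0.40 ± 0.20 SE, adjusted p = 0.168 by limma). Neither was called, except Gabra4 with replicates 3 and 4 alone (adjusted p = 0.0296 by limma).

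Gamma subunits give the receptor its benzodiazepine sensitivity and its synaptic anchoring. Gabrg1, the most abundant gamma subunit gene here, was at 10.9, 13.5, 14.9 and 14.3 FPKM in Med23+/+ and 8.96, 11.4, 15.00 and 12.6 FPKM in Med23-/- and was not called (log2 fold change -0.16 ± 0.15 SE, adjusted p = 0.441 by limma, 95% interval -0.49 to 0.17). The Gabrg1 share of the GABA-A total was 29.04% ± 4.04 in Med23+/+ and 19.3% ± 1.87 in Med23-/-, with no overlap. Gabrd, the delta subunit of extrasynaptic receptors, and Gabre had means of 0.0672 and 0.0889 FPKM.

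A group of GABA-A genes on chromosome 5, from 70751047 to 72149037, holds Gabrg1, Gabra2, Gabra4 and Gabrb1. Of these 3 were tested and 0 called by limma, as well as 0 by unadjusted p under 0.05.

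Of the obligate partners of the GABA-B receptor, Gabbr2 was called higher and Gabbr1 was not. Gabbr1, which binds GABA, was at 22.3, 19.96, 19.6 and 18.5 FPKM in Med23+/+ and 25.2, 21.6, 25.2 and 22.9 FPKM in Med23-/- and was not called (log2 fold change 0.23 ± 0.084 SE, adjusted p = 0.0676 by limma), except without Med23+/+ replicate 1 (adjusted p = 0.0425 by limma) and with quantile normalization (adjusted p = 0.0455 by limma). Gabbr2 (chr4:46662305-46991873), which carries the dimer to the surface and couples it to the G protein, was at 6.47, 5.15, 5.13 and 6.04 FPKM in Med23+/+ and 11.8, 8.31, 12.9 and 12.1 FPKM in Med23-/-. Every Med23-/- library exceeded every Med23+/+ library (log2 fold change 0.86 ± 0.13 SE, adjusted p = 0.00134 by limma), and the call held in all 8 fits without 1 library. The ratio of Gabbr1 to Gabbr2 was 3.06 to 3.87 in Med23+/+ and 1.89 to 2.60 in Med23-/-, with means of 3.55 ± 0.378 and 2.14 ± 0.322 (SD, n = 4 each).

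Of the glycine receptor genes, Glra2 was called higher and Glrb was not. Glrb, whose product anchors the receptor to gephyrin, was at 24.9, 27.6, 21.9 and 23.6 FPKM in Med23+/+ and 21.2, 24.9, 26.3 and 21.2 FPKM in Med23-/-, with overlapping genotypes (log2 fold change -0.065 ± 0.10 SE, adjusted p = 0.669 by limma, 95% interval -0.29 to 0.16). Glra2 (chrX:165129017-165327393), the alpha subunit of the developing brain, was at 1.74, 0.846, 0.823 and 1.15 FPKM in Med23+/+ and 2.41, 2.33, 5.52 and 3.53 FPKM in Med23-/-, without overlap (log2 fold change 1.02 ± 0.23 SE, adjusted p = 0.00831 by limma). Glra1, Glra3 and Glra4 were each under 0.1 FPKM on average, so Glra2 was the only alpha subunit gene of the glycine receptor above that level. The ratio of Glrb to Glra2 FPKM was 14.3 to 32.7 in Med23+/+ and 4.76 to 10.7 in Med23-/-, without overlap.

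The promoters of Gabbr2, Glra2 and Gabra3 are shown because these genes, for which the table has windows, were called in every fit without 1 library, and that of Grik5 because it was the only gene called lower. Sp1, a factor that the study links to Med23, is known to bind the GC box. The study found its motif enriched in promoters of genes lower in Med23-/- iOLs, whereas Gabbr2, Glra2 and Gabra3 were called higher here. Capitals mark GGGCGG or its reverse complement CCGCCC. The windows are RefSeq promoters on GRCm38.p6, 250 bases before and 50 after the start of the transcript, written in its direction.
Gabbr2, chr4:46991665-46991964, minus strand: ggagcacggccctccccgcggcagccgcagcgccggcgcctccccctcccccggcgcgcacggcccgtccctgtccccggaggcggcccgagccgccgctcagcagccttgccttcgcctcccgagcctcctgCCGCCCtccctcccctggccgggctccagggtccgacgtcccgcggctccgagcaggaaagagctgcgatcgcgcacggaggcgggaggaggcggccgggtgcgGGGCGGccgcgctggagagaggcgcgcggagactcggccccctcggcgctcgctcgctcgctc
Glra2, chrX:165327344-165327643, minus strand: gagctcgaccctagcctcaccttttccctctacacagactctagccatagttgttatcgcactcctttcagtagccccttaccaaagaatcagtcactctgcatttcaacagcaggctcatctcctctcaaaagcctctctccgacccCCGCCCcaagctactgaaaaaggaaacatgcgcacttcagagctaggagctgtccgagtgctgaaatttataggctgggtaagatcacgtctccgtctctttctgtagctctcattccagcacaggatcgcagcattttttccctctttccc
Gabra3, chrX:72656758-72657057, minus strand, the first of its 2 windows: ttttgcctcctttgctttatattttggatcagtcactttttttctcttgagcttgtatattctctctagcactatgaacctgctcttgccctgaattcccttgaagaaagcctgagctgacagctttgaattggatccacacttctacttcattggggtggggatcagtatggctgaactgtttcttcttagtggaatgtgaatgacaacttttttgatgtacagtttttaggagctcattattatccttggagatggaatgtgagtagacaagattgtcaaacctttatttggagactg
Grik5, chr7:25072320-25072619, minus strand: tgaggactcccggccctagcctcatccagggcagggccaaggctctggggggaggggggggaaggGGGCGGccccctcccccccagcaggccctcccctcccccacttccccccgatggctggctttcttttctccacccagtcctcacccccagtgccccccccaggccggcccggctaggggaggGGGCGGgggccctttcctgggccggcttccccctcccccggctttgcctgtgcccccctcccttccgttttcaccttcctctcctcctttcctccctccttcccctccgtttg
The hexamer occurred 2 times in the Gabbr2 window, 1 time in Glra2 and 2 times in Grik5, and 0 times in both windows of Gabra3 and in that of Gria2. Windows were matched for 32 of the 46 receptor genes. Of their 39 windows 20 held the hexamer on either strand (51.3%), against 35.7% of 32851 windows in the table. A match is a description of these letters and not a binding site.

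The genes around the receptors, 88 partners, transporters and enzymes in 8 lists, held calls in both directions. Of 71 tested, 21 were called higher and 9 lower, beside 15.9% and 14.1% of all genes tested, and with a fold change above 2 there were 7 higher and 3 lower, beside 2.98% and 1.75%. These shares of all genes are the background of each list that follows. Levels from one value to another are the means of 4 libraries in Med23+/+ and then in Med23-/-.

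Among 17 AMPA receptor auxiliary and scaffold genes tested, 7 were called higher and 1 lower. Cacng2, encoding the prototype of the proteins that carry AMPA receptors to synapses, rose from 1.23 to 4.25 FPKM (log2 fold change 1.27 ± 0.21 SE, adjusted p = 0.00202 by limma), and Shisa6, which slows receptor desensitization, from 3.11 to 7.33 FPKM (log2 fold change 1.01 ± 0.15 SE, adjusted p = 0.00114 by limma). Shisa9 encodes a further auxiliary protein of the same family and fell from 5.04 to 2.005 FPKM (log2 fold change -1.01 ± 0.15 SE, adjusted p = 0.00114 by limma). The 4 kainate auxiliary and delta receptor genes tested, among them Neto1 and Neto2, gave 0 calls by limma and 0 by unadjusted p under 0.05, with adjusted p = 0.367 for Neto1 by limma.

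Signalling partners of the metabotropic receptors gave 1 higher and 2 lower of 10 tested. The phospholipases C that group 1 receptors activate moved apart: Plcb4 rose from 4.11 to 6.78 FPKM (log2 fold change 0.60 ± 0.12 SE, adjusted p = 0.00524 by limma) and Plcb1 fell from 19.3 to 12.9 FPKM (log2 fold change -0.55 ± 0.11 SE, adjusted p = 0.00502 by limma). Of 5 GABA-B partners tested, 3 were called higher and 1 lower. Kctd8 and Kctd12b, of the family that shapes GABA-B responses, rose from 1.38 to 4.53 FPKM (log2 fold change 1.20 ± 0.18 SE, adjusted p = 0.00114 by limma) and from 1.30 to 3.14 FPKM (log2 fold change 0.86 ± 0.14 SE, adjusted p = 0.00150 by limma). Kcnj3, a potassium channel subunit opened by GABA-B receptors, fell from 13.8 to 4.01 FPKM (log2 fold change -1.58 ± 0.15 SE, adjusted p = 9.06e-05 by limma). Of 9 GABA-A and glycine receptor partners tested, Plcl2 was called higher (log2 fold change 0.64, adjusted p = 0.00136 by limma) and Plcl1 lower (log2 fold change -0.29, adjusted p = 0.0245 by limma), both related to phospholipase C and known to bind GABA-A receptors.

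Among the genes that supply and remove the transmitters, Slc1a1 had the lowest log2 fold change and Gad1 the highest of all the partner, transporter and enzyme genes tested. Of 11 glutamate genes tested 3 were called higher and 1 lower. Slc1a1, the glutamate and cysteine transporter EAAC1, was at 225, 218, 264 and 225 FPKM in Med23+/+ and 74.9, 86.8, 78.2 and 57.97 FPKM in Med23-/- (log2 fold change -1.64 ± 0.12 SE, adjusted p = 3.22e-05 by limma). Slc38a3, a glutamine transporter, rose from 6.87 to 17.1 FPKM (log2 fold change 1.17 ± 0.17 SE, adjusted p = 0.00101 by limma). Of 13 GABA and glycine genes tested, 5 were called higher and 2 lower. The synthesis genes Gad1 (8.55 to 26.1 FPKM, log2 fold change 1.47 ± 0.28 SE, adjusted p = 0.00408 by limma) and Gad2 (1.65 to 5.35 FPKM, log2 fold change 1.16 ± 0.29 SE, adjusted p = 0.0151 by limma) rose, as did the vesicular transporter Slc32a1 (4.74 to 13.6 FPKM, log2 fold change 1.38 ± 0.25 SE, adjusted p = 0.00326 by limma). Gad2 and Slc32a1 also stand in the neuron marker list. The GABA-degrading transaminase gene Abat fell from 47.2 to 26.6 FPKM (log2 fold change -0.81 ± 0.086 SE, adjusted p = 0.000186 by limma). Gad1, Gad2 and Slc32a1 on one side and Abat on the other showed no overlap between genotypes.

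Chloride cotransporters set the direction of the current through GABA-A and glycine receptors. Slc12a2 (NKCC1), which loads chloride into the cell, was at 47.2, 49.2, 62.7 and 52.7 FPKM in Med23+/+ and 25.9, 28.7, 28.7 and 25.9 FPKM in Med23-/- and was called lower (log2 fold change -0.92 ± 0.097 SE, adjusted p = 0.000164 by limma). Slc12a5 (KCC2), the neuronal extruder, had 1.63 ± 0.238 FPKM (SD, n = 4) in Med23+/+ and 2.74 ± 1.15 FPKM (SD, n = 4) in Med23-/- and was not called (log2 fold change 0.46 ± 0.21 SE, adjusted p = 0.130 by limma). The ratio of Slc12a2 to Slc12a5 FPKM had a mean of 32.7 ± 3.84 in Med23+/+ and 11.7 ± 5.84 in Med23-/- (SD, n = 4 each), with no overlap.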

How the data were processed

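Total RNA of the 8 iOL samples was sequenced by the authors, who used FastQC for read quality, Cutadapt for trimming, Tophat2 for alignment to mm10 and cuffdiff for quantification with fragment bias correction and weighting of reads that map to several places. The versions, the gene annotation, the strand setting and the library normalization are not given in the sources used here. The authors deposited FPKM per library, 2 pooled FPKM columns and the results of their own comparison (fold changes, p-values and q-values). Only the FPKM of the 8 libraries were used, and 0 library columns were left out.

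FPKM were transformed to log2(FPKM + 1) with no further scaling. Genotypes were compared over the 12328 genes averaging 1 FPKM or more, using the functions lmFit and eBayes (with trend) of limma 3.58.1 under R 4.3.3, without a block. Benjamini-Hochberg adjustment ran over all of these genes, and calls needed an adjusted p under 0.05. The comparison was also run on simulated data. Those data had independent noise and larger fold changes than any receptor gene had here, so they do not check the receptor calls. Groups follow the labels. Shares and ratios are described without a test. The receptor genes and the lists of partners and markers were chosen with earlier results of these data known. Receptor genes that were tested are named, apart from some genes, of these and of the other lists, that are not reported here and are left out of the figures. Of the other lists the genes past both limits (adjusted p and a fold change above 2) and the 2 with the smallest adjusted p are named. Slc12a5 and Adarb1 are given as well, chosen after their values were seen. Of the marker lists the most abundant ones are named. Slc17a6, Slc17a7, the OPC markers called, Aldoc, the endothelial markers and the mature oligodendrocyte markers under 1 FPKM were also chosen afterwards.

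Coordinates and coding stretches come from GENCODE vM21 on mm10, and promoter windows from RefSeq. The glutamine codon was located in the translated reference transcripts. The comparison was repeated without each library in turn, with the replicate number as a block, without the variance trend, after median-ratio scaling or quantile normalization, with a pseudocount of 0.1, and with the limit on mean FPKM raised to 5 or dropped to any value above 0. The 3 smaller sets of libraries, Med23-/- replicates 1 and 2 against all Med23+/+, replicates 1 and 2 alone, and replicates 3 and 4 alone, were chosen after seeing the data. Figures were drawn with matplotlib 3.10.9 in Python 3.11.15.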

Additional observations from a re-analysis of the deposited data

How the results depend on the processing

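The count of 13 receptor genes called higher by limma was 5 with a mean of at least 5 FPKM required (16 tested), 7 to 15 without any 1 library, 4 with Med23-/- replicates 1 and 2 against all Med23+/+ libraries and 2 with replicates 1 and 2 alone. It was 7 without Med23+/+ replicate 2, 7 without Med23+/+ replicate 3, 8 without Med23-/- replicate 3 and 8 without Med23-/- replicate 4. Calls in either direction, 14, were 6, 7 to 16, 4 and 2 in the same settings, with 9 without Med23+/+ replicate 4. The count called lower, 1 (Grik5), was 0 with all genes above 0, with quantile normalization, without the variance trend and in the 3 smaller sets of libraries, was 0 without Med23+/+ replicate 3 or 4 or Med23-/- replicate 3 or 4 and otherwise 1 (0 to 1 over these fits), and was 2 with the replicate block. That 1 gene was Gria2, not Grik5, without Med23+/+ replicate 1 (adjusted p = 0.0433 by limma) and Grin3a without Med23-/- replicate 2 (adjusted p = 0.0476 by limma). With a fold change above 2 the 5 higher genes became 1 with a mean of at least 5 FPKM, 1 with quantile normalization, 2 to 7 without any 1 library (3 without Med23+/+ replicate 2 or 3, 2 without Med23-/- replicate 3 or 4), 1 with Med23-/- replicates 1 and 2 against all Med23+/+, 1 with replicates 1 and 2 alone and 11 with replicates 3 and 4 alone. In the smaller sets the 21 partner, transporter and enzyme genes called higher became 12 with Med23-/- replicates 1 and 2 against all Med23+/+ and 5 with replicates 1 and 2 alone, and the 9 called lower became 4 with replicates 3 and 4 alone. Smaller sets hold fewer libraries.

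With the replicate number as a block, 12 receptor genes were called higher and 2 lower, Grik5 and Gria2 (for Gria2 adjusted p = 0.0289 by limma). Same-numbered libraries of the 2 genotypes correlated at 0.13, -0.096, -0.026 and 0.159 over their deviations from the group means. The highest correlations with a library of another number were 0.162, 0.1, 0.0425 and 0.142. Such values cannot tell whether same-numbered libraries share more than a number.

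Log2 fold changes turned sign only among genes not called with all 8 libraries. Leaving out 1 library moved Gria4 between -0.038 and 0.14 (-0.024 without Med23+/+ replicate 1, -0.0015 without Med23+/+ replicate 2, -0.038 without Med23-/- replicate 3), Grik3 between -0.020 (without Med23-/- replicate 1) and 0.093, and Grik4 between -0.041 (without Med23+/+ replicate 2) and 0.11. With Med23-/- replicates 1 and 2 against all Med23+/+ libraries Gria4 was at -0.11 and Grm7 at -0.060. With replicates 1 and 2 alone Gabra2 was at -0.065, Gabra4 at -0.037 and Grm7 at -0.13. With replicates 3 and 4 alone Glrb was at 0.054, Gria3 at -0.023, Grik3 at -0.050 and Grik4 at -0.15. The cause was not tested. Over the planned settings other than leaving out a library, 176 of the log2 fold changes of single genes kept their direction and side of the threshold, 2 passed it and 12 fell short of it. The depth of the libraries is unknown, so what it limits among the genes near 1 FPKM could not be stated.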
